A study of Mus musculus with 10 samples.

Results

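The mouse *Cyp2b* family was followed in liver RNA as 5 genes chosen by name, *Cyp2b10*, *Cyp2b9*, *Cyp2b13*, *Cyp2b19* and *Cyp2b23*, which are 5 of the 16647 genes listed in the count table. The livers came from humanized PXR-CAR-CYP3A4/3A7 mice (Taconic model 11585) on a high-fat diet (HFD), 5 control livers and 5 MI-883 livers, each from a separate animal. All mice carried the human receptor and CYP3A genes, so no group with the mouse receptors was compared here. The mice were males, aged 10 to 15 weeks at the start, and received HFD for 8 weeks before and throughout 4 weeks of treatment. MI-883, which the study describes as a CAR agonist and PXR antagonist, was given by oral gavage at 5 mg/kg, 3 times per week. Control mice received the vehicle alone by the same route, a mixture of 5% DMSO, 5% PEG300 and 90% corn oil.

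CYP2B enzymes are cytochrome P450 monooxygenases of the endoplasmic reticulum of hepatocytes, where they oxidize drugs, steroids and other lipophilic compounds with electrons passed on by P450 oxidoreductase. *Cyp2b10* is the classical phenobarbital-inducible gene of mouse liver and the counterpart of human *CYP2B6*. The nuclear receptor CAR (constitutive androstane receptor, gene *Nr1i3*) drives its transcription from a distal upstream enhancer, and PXR (pregnane X receptor, gene *Nr1i2*) can bind the same type of element. *Cyp2b9* and *Cyp2b13* are known as genes of female mouse liver that are held low in adult males by the male pattern of growth hormone, and *Cyp2b19* is known from the epidermis.

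The 5 genes lie in the *Cyp2* cluster of chromosome 7 (positions from the RefSeq annotation of GRCm38). *Cyp2b10* (Entrez gene 13088) spans chr7:25897658-25926624, *Cyp2b13* (13089) spans chr7:26061388-26096197 and *Cyp2b9* (13094) spans chr7:26173350-26210661, all on the plus strand. *Cyp2b23* (243881) spans chr7:26665227-26686430 on the minus strand, and *Cyp2b19* (13090) spans chr7:26757142-26772630 on the plus strand. *Cyp2b13* starts 134763 bases after the end of *Cyp2b10*, and *Cyp2b9* starts 77152 bases after the end of *Cyp2b13*.

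The start regions of the 3 members with liver transcripts are shown first, because *Cyp2b9* and *Cyp2b13* have almost the same start region while that of *Cyp2b10* is less alike. Each window holds 300 bases, 250 before and 50 after a start site of the gene, 5′ to 3′, from RefSeq on GRCm38.p6, at chr7:25897408-25897707 for *Cyp2b10*, chr7:26173159-26173458 for *Cyp2b9* and chr7:26061245-26061544 for *Cyp2b13*, all on the plus strand. Capitals mark AGGTCA (the half-site of many nuclear receptors), TTGCATAA (an octamer of the type bound by C/EBP factors) and CATAAAA (an A-rich heptamer).
Cyp2b10: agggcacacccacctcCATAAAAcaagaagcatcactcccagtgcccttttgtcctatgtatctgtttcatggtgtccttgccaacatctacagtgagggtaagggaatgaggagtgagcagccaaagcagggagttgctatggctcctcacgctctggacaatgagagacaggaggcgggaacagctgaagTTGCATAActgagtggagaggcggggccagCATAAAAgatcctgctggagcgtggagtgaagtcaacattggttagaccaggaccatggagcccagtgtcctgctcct
Cyp2b9: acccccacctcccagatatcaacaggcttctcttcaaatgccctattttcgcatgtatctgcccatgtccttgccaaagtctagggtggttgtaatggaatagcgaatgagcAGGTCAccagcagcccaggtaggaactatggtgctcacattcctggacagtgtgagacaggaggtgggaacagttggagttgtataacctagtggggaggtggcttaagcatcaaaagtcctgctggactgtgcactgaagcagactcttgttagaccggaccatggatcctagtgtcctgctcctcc
Cyp2b13: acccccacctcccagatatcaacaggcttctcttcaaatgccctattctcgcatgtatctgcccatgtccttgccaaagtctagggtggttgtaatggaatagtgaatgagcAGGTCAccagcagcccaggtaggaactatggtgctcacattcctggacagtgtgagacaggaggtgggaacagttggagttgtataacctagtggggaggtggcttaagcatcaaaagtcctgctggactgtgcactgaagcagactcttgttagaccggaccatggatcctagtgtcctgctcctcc

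The windows of *Cyp2b9* and *Cyp2b13* were identical at 298 of 300 positions (99.3%). Counted from 1 at the 5′ end of the window, the differences were T48C and C104T, with the base of *Cyp2b9* first and that of *Cyp2b13* last. The window of *Cyp2b10* aligned to each of them with 72.9% identical columns. The start site used for these windows lay 59 bases inside the annotated gene for *Cyp2b9*, 107 bases inside it for *Cyp2b13* and at its first base for *Cyp2b10*. AGGTCA, searched on both strands, occurred 138 bases before the start in *Cyp2b9* and in *Cyp2b13*, 121 bases before it in *Cyp2b19* and 164 bases before it in *Cyp2b23*, but not in the window of *Cyp2b10*. Of all 32851 windows of this length, 16.3% held this half-site. Direct repeats of half-sites with a spacing of 4 bases, the arrangement to which CAR and PXR bind, were searched as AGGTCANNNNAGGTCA (0.0152% of all windows), AGGTCANNNNAGTACA (0.00609%) and AGGTCANNNNAGTTCA (0%), and none of them occurred in a member's window. The distal enhancer of *Cyp2b10* lies outside these windows and was not analysed here. TTGCATAA, found in 0.743% of all windows, occurred 58 bases before the start in *Cyp2b10*, 40 bases before it in *Cyp2b19* and 85 bases before it in *Cyp2b23*, and CATAAAA, found in 4.19%, occurred in the same 3 windows. Both were chosen after the windows had been seen, share the letters CATAA and did not overlap in these windows. Neither occurred in the windows of *Cyp2b9* and *Cyp2b13*.

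Counts on genes summed to between 24014461 and 36221514 per control liver and to between 23513665 and 28349963 per MI-883 liver. Levels are given as CPM, counts per 1000000 after TMM scaling (a correction for library composition), and as RPKM, CPM per kilobase of exon, which allows levels of different genes to be compared. A count of 3, the smallest level read as present, corresponded to between 0.0838 and 0.133 CPM, which covers counting error only. The tissue label was checked with hepatocyte markers, of which 9 of 10 were listed. Their summed level lay between 89887 and 104326 CPM in control livers and between 75890 and 91612 CPM in MI-883 livers, and none of the 9 passed edgeR's test (4 had an unadjusted *P* under 0.05 and 2 passed DESeq2's test). Of 26 tested markers of cholangiocytes, Kupffer cells and leukocytes, stellate cells and endothelial cells, 0 passed the edgeR or DESeq2 test, and 6 had an unadjusted *P* under 0.05. Over all 13219 tested genes, 2059 had an unadjusted edgeR *P* under 0.05. That is the background for such counts in every list given here. In whole liver, a change in the number of cells of a type and a change in RNA per cell cannot be told apart.

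MI-883 was followed by a rise of *Cyp2b10*, whereas *Cyp2b9* and *Cyp2b13* did not pass the test and *Cyp2b19* and *Cyp2b23* were at or near 0 in every liver. The 5 control livers held 29.2, 44.3, 24.4, 43.8 and 40.8 CPM of *Cyp2b10* in replicates 1 to 5, from raw counts between 597 and 1511. The 5 MI-883 livers held 851, 1375, 634, 1248 and 989 CPM, from raw counts between 17130 and 31072. The groups were far apart, and the lowest MI-883 liver stood 14.3-fold above the highest control liver. The mean rose from 36.5 ± 9.10 to 1019 ± 299 CPM (SD, n = 5), a log2 fold change of 4.80 (SE 0.247) or 27.9-fold. This passed edgeR's quasi-likelihood test with an adjusted *P* = 3.6e-07, and DESeq2 gave the same log2 fold change of 4.80 (adjusted *P* = 1.7e-114). Exact two-sided permutation of the livers gave *P* = 0.00794, the smallest value that 5 against 5 livers allow.

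Read against all genes, this change stood near the top of the table. The edgeR test called 136 of 13219 tested genes (1.03%), 101 higher (0.764%) and 35 lower (0.265%), and of the members 3 of 5 could be tested and 1 was called, as higher. DESeq2 called 463 genes (3.5%) and the same member. *Cyp2b10* was the fourth of the 13219 tested genes by log2 fold change and ranked 2 among 11613 genes with a mean of at least 1 CPM. Every MI-883 liver lay above every control liver for 271 genes (2.05%), of which *Cyp2b10* was one, and below every control liver for 256 genes (1.94%), none of them a member. Per exon length, its mean level went from 17.3 ± 4.31 to 483 ± 141 RPKM, and its rank by mean RPKM went from 2227 to 108 of 13185 genes.

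*Cyp2b9*, a steroid-hydroxylating P450 of female liver, was the second most abundant member in control livers. The control livers held 20.3, 20.1, 3.31, 32.3 and 12.1 CPM in replicates 1 to 5. The MI-883 livers held 14.1, 12.6, 7.48, 1.83 and 3.01 CPM. All 5 MI-883 livers lay below the control median, 2 of them below every control liver. The groups overlapped, since control livers 3 and 5 both lay below MI-883 livers 1 and 2. Means were 17.6 ± 10.8 and 7.80 ± 5.51 CPM, a log2 fold change of −1.18 (SE 0.554) that did not pass edgeR's test (adjusted *P* = 0.327, unadjusted *P* = 0.0524) or DESeq2's (adjusted *P* = 0.404). Exact two-sided permutation gave *P* = 0.159. Leaving out control liver 3 gave −1.44 (edgeR adjusted *P* = 0.225), and over the 10 fits that each left out 1 liver the value lay between −1.52 and −0.84.

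*Cyp2b13*, the nearest relative of *Cyp2b9*, was lower still and varied most among control livers. These held 4.83, 3.84, 1.06, 12.1 and 2.59 CPM in replicates 1 to 5, and the MI-883 livers held 6.66, 6.73, 5.22, 2.22 and 2.27 CPM. All 5 MI-883 livers lay within the range of the controls. Means were 4.89 ± 4.27 and 4.62 ± 2.25 CPM, with a log2 fold change of −0.10 (SE 0.509) that did not pass edgeR's test (adjusted *P* = 0.942). DESeq2 gave an adjusted *P* = 0.971, and exact two-sided permutation gave *P* = 0.802. Its sign rested on single livers, with 0.56 without control liver 4, 0.069 without MI-883 liver 4 and 0.073 without MI-883 liver 5.

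*Cyp2b19* and *Cyp2b23* had almost no reads. *Cyp2b19* had 1 count in control livers 1 and 2 and 0 in the other 8 livers, and *Cyp2b23* had 1 count in control liver 4 and 0 in the other 9. All these values lay under the floor of 3 counts per liver, so no fold change was computed. Of the 7 keratinocyte markers written for comparison, 5 were listed and 2 tested, with summed levels between 3.96 and 4.89 CPM in control livers and between 2.55 and 3.80 CPM in MI-883 livers, and 0 were called by edgeR or DESeq2 (1 had an unadjusted *P* under 0.05).

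**Figure D1:**
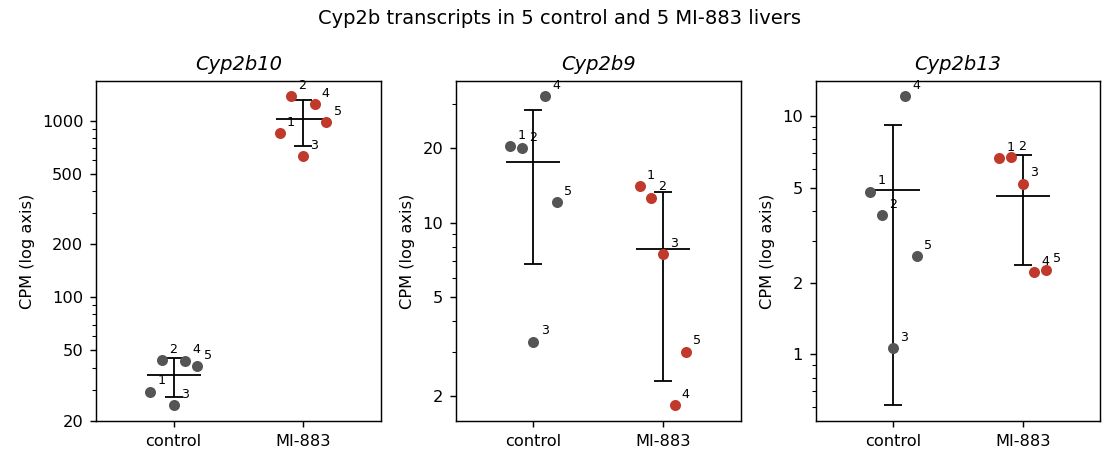
Levels of *Cyp2b10*, *Cyp2b9* and *Cyp2b13* in CPM on log axes, 1 point per liver with its replicate number, for 5 control (grey) and 5 MI-883 (red) livers. Horizontal bars with caps are mean ± SD. *Cyp2b10* separates the groups (24.4 to 44.3 against 634 to 1375 CPM), while the groups overlap for *Cyp2b9* and *Cyp2b13*.

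The response of *Cyp2b10* was compared with that of its relatives within each liver, as the difference in log2(CPM + 0.1). Against *Cyp2b9*, this difference was 1.34 ± 0.995 in control and 7.34 ± 1.44 in MI-883 livers (SD, n = 5), so *Cyp2b10* gained 6.0 (SE 0.781) on the log2 scale (exact two-sided permutation test, *P* = 0.00794). Against *Cyp2b13*, it was 3.25 ± 1.03 in control and 7.86 ± 0.992 in MI-883 livers, a gain of 4.61 (SE 0.641, exact permutation test, *P* = 0.00794). These were the 2 pairs tested, and both had a Benjamini-Hochberg adjusted permutation *P* = 0.00794. *Cyp2b10* thus differed in response from *Cyp2b9* and from *Cyp2b13* by more than the spread between livers, although the transcripts are alike. Identical columns made up 84.8% between *Cyp2b10* and *Cyp2b9* and 84.5% between *Cyp2b10* and *Cyp2b13*. Between *Cyp2b9* and *Cyp2b13* they made up 89.3%, and a difference in response between these was not tested.

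The makeup of the family changed with the level of *Cyp2b10*. Summed over the 5 members, the family went from 29.3 ± 11.1 to 489 ± 141 RPKM. *Cyp2b10* held 50.8, 62.2, 83.2, 46.6 and 71.2% of this sum in control livers 1 to 5, and between 97.3 and 99.6% in MI-883 livers. In control livers *Cyp2b9* therefore held a sizeable part, 29.3 ± 11.3%, which was 0.927 ± 0.682% in MI-883 livers. *Cyp2b13* held 7.85 ± 4.25% and 0.553 ± 0.328%. These shares add up to a whole, so a rise of *Cyp2b10* alone lowers the shares of the others.

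By mean RPKM the order in control livers was *Cyp2b10* (17.3 ± 4.31), *Cyp2b9* (9.39 ± 5.75) and *Cyp2b13* (2.61 ± 2.28), at ranks 2227, 3499 and 7006 of 13185 genes. *Cyp2b10* exceeded *Cyp2b9* in 5 of 5 control livers, by ratios of 1.28, 1.96, 6.55, 1.20 and 3.01, and *Cyp2b9* exceeded *Cyp2b13* in 5 of 5. An exact sign-flip permutation test over 5 livers cannot go below *P* = 0.0625, and both neighbours in this order gave that value. In MI-883 livers the order was *Cyp2b10* (483 ± 141 RPKM), *Cyp2b9* (4.16 ± 2.94) and *Cyp2b13* (2.46 ± 1.20), at ranks 108, 5684 and 7235. There the ratio of *Cyp2b10* to *Cyp2b9* was 53.7, 96.8, 75.3, 607 and 292. *Cyp2b9* exceeded *Cyp2b13* in 4 of 5 MI-883 livers, with a mean log2 ratio of 0.53 ± 0.53 (SD), which this design cannot test at the threshold of 0.05.

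The ratio of *Cyp2b9* to *Cyp2b13* was 4.21, 5.22, 3.11, 2.67 and 4.66 in control livers and 2.11, 1.87, 1.43, 0.823 and 1.33 in MI-883 livers, on the RPKM scale. The groups did not overlap for this ratio, although they overlapped for each gene alone. It was picked out after the values had been seen and is given as a description, without a test. By the level of single genes, the groups did not overlap in 527 of all tested genes (3.99%). The share for ratios between genes was not computed.

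**Figure D2:**
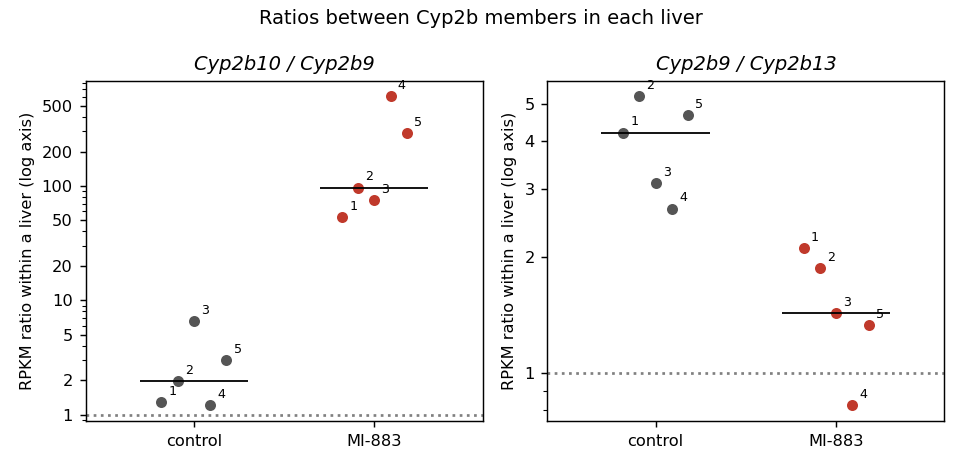
Ratio of *Cyp2b10* to *Cyp2b9* (left) and of *Cyp2b9* to *Cyp2b13* (right) in RPKM within each liver, on log axes, with replicate numbers. Bars are group medians and the dotted line marks a ratio of 1. The left ratio lies between 1.20 and 6.55 in control and between 53.7 and 607 in MI-883 livers, and the right ratio is lower in each MI-883 liver (0.823 to 2.11) than in any control liver (2.67 to 5.22).

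The members varied between livers of a group more than most genes of their level. *Cyp2b9* ranged 9.76-fold among control livers and 7.71-fold among MI-883 livers, with a coefficient of variation of 61.2% and 70.6%. Its biological coefficient of variation in edgeR, the spread left after counting error, was 0.604, against a median of 0.114 over 4025 tested genes within 2-fold of its mean CPM, of which 4 were higher. For *Cyp2b13* the range was 11.4-fold in control and 3.03-fold in MI-883 livers, and its biological coefficient of variation was 0.555, against a median of 0.158 over 2637 such genes, 12 of them higher. *Cyp2b10* was steadier, with coefficients of variation of 24.9% in control and 29.3% in MI-883 livers. Its biological coefficient of variation of 0.237 was nevertheless above that of most genes of its level (median 0.12 over 448 genes, 18 higher). That level is the mean CPM over all 10 livers. For *Cyp2b10* it lies between the values of the 2 groups, so no liver held it.

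**Figure D3:**
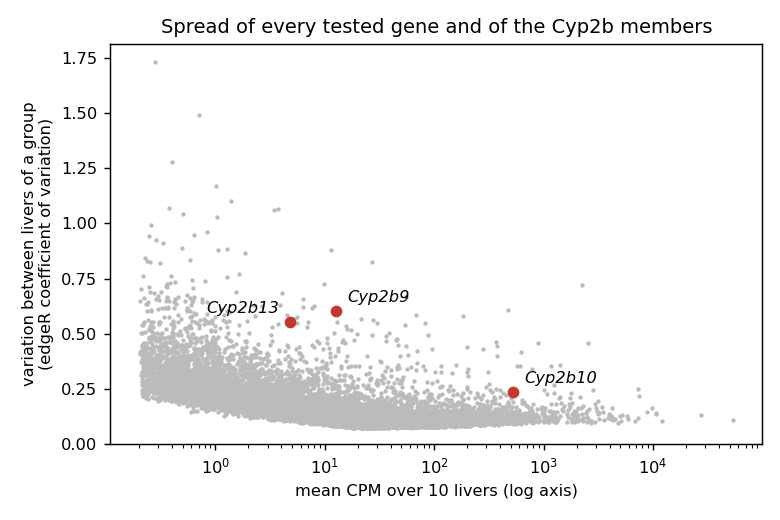
Biological coefficient of variation from edgeR (vertical) against mean CPM over 10 livers (horizontal, log axis) for the 13219 tested genes (grey) and 3 *Cyp2b* members (red). *Cyp2b9* (0.604) and *Cyp2b13* (0.555) lie near the upper edge of the cloud at their level. *Cyp2b10* (0.237) also lies above most genes of its level, with 18 of 448 higher.

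*Cyp2b9* and *Cyp2b13* were both lowest in control liver 3 and highest in control liver 4. *Cyp2b10* was also lowest in control liver 3 (24.4 CPM) but highest in control liver 2 (44.3 CPM). The 15 other tested genes of a list of female-biased liver genes were lowest in control liver 3 in 10 cases and highest in control liver 5 in 11. Of 25 male-biased liver genes, 19 were highest in control liver 3 and 13 lowest in control liver 1. Control liver 3 was thus most often at the low end of the first list and at the high end of the second, and whether the members' spread belongs to it was not tested.

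The members were compared with 11613 genes that had a mean of at least 1 CPM over the 10 livers. Likeness of pattern was measured as the root mean square distance of log2(CPM + 0.1) from each gene's control mean. Distances taken this way depend on the size of the change, so genes with large rises come near *Cyp2b10*. Nearest to *Cyp2b10* was *Prom1*, encoding the membrane glycoprotein prominin 1, at a distance of 0.820, which went from 0.650 ± 0.534 to 11.1 ± 1.77 CPM (log2 fold change 4.0, edgeR adjusted *P* = 0.00011). *Prom1* reached the mean of 1 CPM only through its MI-883 livers. It was followed by the glutathione transferase gene *Gstm3* at 1.14 and by *Cyp2c55*, encoding a P450 of another subfamily, at 1.17. Nearest to *Cyp2b9* were *Vldlr* (0.690), encoding a lipoprotein receptor, *Cyp4a14* (0.860), encoding a fatty acid hydroxylase, and *Cyp2c38* (0.886). Nearest to *Cyp2b13* were the transporter gene *Slc22a27* (0.604), *Mgst3* (0.613), encoding a microsomal glutathione transferase, and the histone gene *H4c9* (0.641). None of these 6 genes passed edgeR's test, with adjusted *P* between 0.108 and 0.970. *Cyp2b9* and *Cyp2b13* stood 1.07 apart, which was rank 20 of 11613 genes seen from *Cyp2b9* but rank 10379 seen from *Cyp2b13*, and *Cyp2b10* was among the genes farthest from both, at 4.39 from *Cyp2b9* and 3.39 from *Cyp2b13*.

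Of the neighbours in the cluster, *Cyp2a5* rose with *Cyp2b10*. Between the outermost *Cyp2* genes, over 1356096 bases, 40 genes are annotated, 13 were listed in the counts and 11 were tested, all of them *Cyp2* genes. *Cyp2a5*, the coumarin hydroxylase of mouse liver, went from 2513 ± 438 to 4276 ± 811 CPM (log2 fold change 0.77, SE 0.151, edgeR adjusted *P* = 0.0281), and 12.1% of its 100-base stretches also occur in other genes, mainly in *Cyp2a4* and a pseudogene. Of the 8 tested genes that are not *Cyp2b* members, this was the 1 called. The nearest *Cyp2* gene before *Cyp2b10*, *Cyp2s1*, had a log2 fold change of 0.89 (SE 0.639, edgeR adjusted *P* = 0.531) at levels under 1.2 CPM, and *Cyp2a4*, the next *Cyp2* gene after *Cyp2b9* and another gene of female liver, had 0.13 (SE 0.275, adjusted *P* = 0.847). *Cyp2g1* and *Cyp2a22* had negative values (−0.28 and −0.77), and *Cyp2a12*, *Cyp2f2* and *Cyp2t4* lay between 0.044 and 0.15, with adjusted *P* of 0.525 or more for these 5 genes in edgeR. The 3 annotated *Cyp2b* pseudogenes of the cluster were not listed in the counts.

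**Figure D4:**
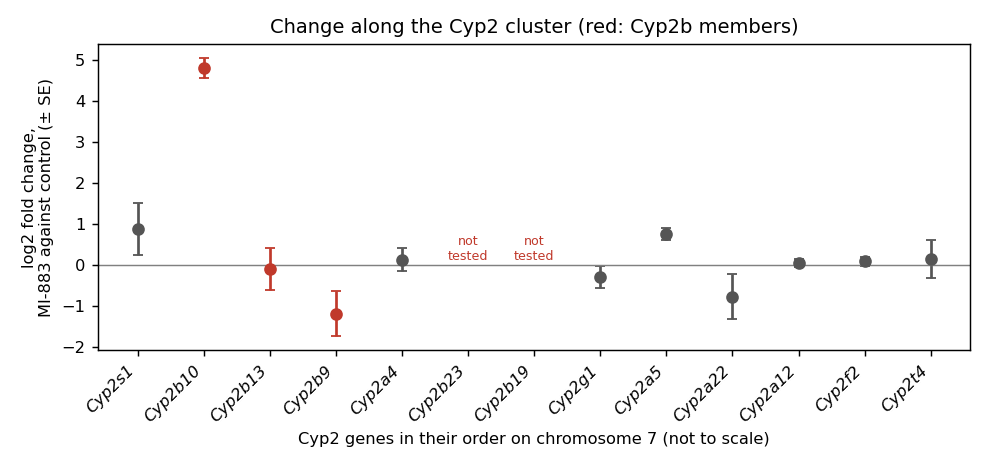
Log2 fold change of MI-883 against control livers (edgeR, ± SE) for 13 *Cyp2* genes in their order along chromosome 7, with *Cyp2b* members in red. *Cyp2b10* (4.80) and *Cyp2a5* (0.77) passed the test, *Cyp2b13* (−0.10) and *Cyp2b9* (−1.18) did not, and *Cyp2b23* and *Cyp2b19* were below the count minimum.

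Reads of the related members could be exchanged only over a small part of their transcripts. No stretch of 100 bases of *Cyp2b10* occurs in a transcript of another gene, and the same holds for 150 bases, the read length given in the study's methods. *Cyp2b9* shares 1.18% of its 100-base stretches with other genes, in 21 cases with *Cyp2b13*, and 0% at 150 bases. *Cyp2b13* shares 9.29% at 100 bases and 5.04% at 150 bases, the latter all with *Gm45225*, annotated as an unprocessed pseudogene. How reads that fit 2 genes were counted is not given in the sources used here, so the level of *Cyp2b13* is less certain than that of the other members.

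*Cyp2b10* moved furthest among the known CAR and PXR target genes of mouse liver. Of 36 genes written in this list, which includes *Cyp2b10*, 34 were tested, and 20 rose and 0 fell in edgeR's test (23 and 0 in DESeq2's). Over all tested genes, edgeR called 0.764% higher and 0.265% lower. This list, like the others here, was written with earlier results of these data known, so its count is a description. The median log2 fold change was 0.77, against 0.0045 over all tested genes. After *Cyp2b10* (4.80), the list was led by *Gstm3* (3.24, SE 0.357), *Cyp2c55* (3.20, SE 0.118) and *Akr1b7* (3.05, SE 0.283), an aldo-keto reductase gene, all 3 with an edgeR adjusted *P* of 0.00053 or less. In MI-883 livers *Cyp2b10* was lowest in liver 3 and highest in liver 2. Of the 19 other called genes, 11 were lowest in liver 1 and 7 in liver 3, and 7 were highest in liver 2, 7 in liver 4 and 5 in liver 5. Of *Gstm3*, 13.8% of the 100-base stretches also occur in other genes.

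**Figure D5:**
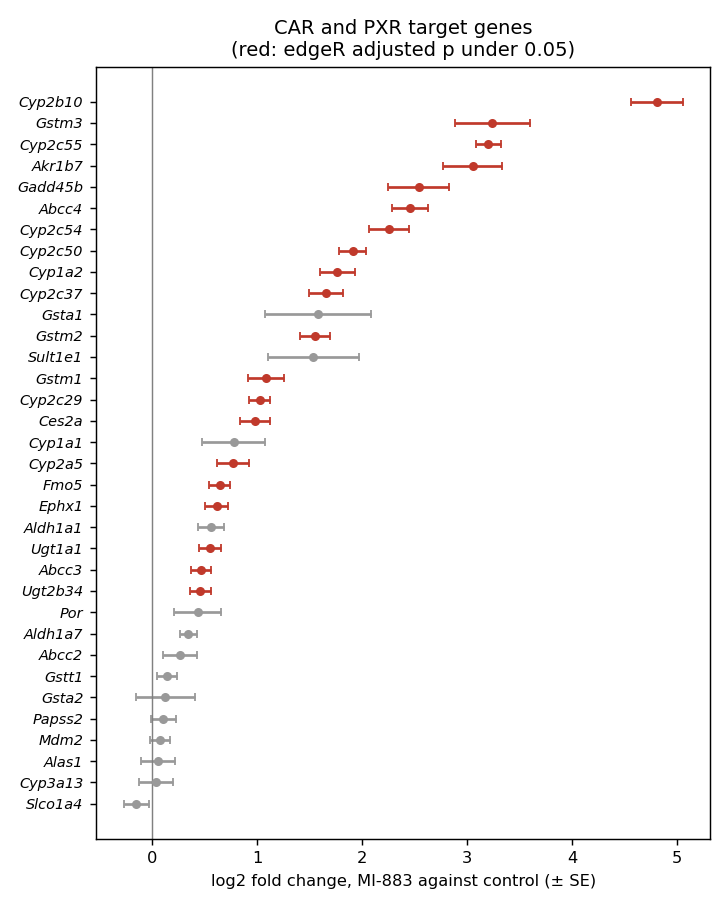
Log2 fold change of MI-883 against control livers (edgeR, ± SE) for the 34 tested CAR and PXR target genes, with genes of an adjusted *P* under 0.05 in red. *Cyp2b10* (4.80) lies apart from *Gstm3* (3.24) and the other genes, and 33 of 34 values lie above 0.

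Among the receptors and cofactors that control *Cyp2b* genes, 1 of 25 transcripts was called in edgeR and 3 had an unadjusted *P* under 0.05. This was *Gadd45b* (log2 fold change 2.54, SE 0.291, adjusted *P* = 0.00076), which is known as a coactivator of CAR and stands in the target list too. DESeq2 called *Gadd45b* higher and *Cebpa*, encoding the transcription factor C/EBPα, lower (log2 fold change −0.30, DESeq2 adjusted *P* = 0.0151, edgeR adjusted *P* = 0.133), the latter named after its values had been seen. The median of the list was −0.048. Reads on the mouse receptor genes, which the model replaces by human ones, lay between 9.82 and 15.5 CPM for *Nr1i2* and between 4.41 and 8.90 CPM for *Nr1i3* over all livers. Their log2 fold changes were 0.073 (edgeR adjusted *P* = 0.812) and −0.16 (adjusted *P* = 0.696). What these reads stand for was not tested, and the human receptor transcripts were not analysed here. *Cyp3a11*, the mouse *Cyp3a* gene most used as a PXR marker, had 0 or 1 count in every liver of both groups. These mice carry human CYP3A genes, so this count gives no reading of PXR activity here.

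Of 7 genes written as electron or binding partners of P450 enzymes, 0 were called by edgeR, and 4 had an unadjusted *P* under 0.05. *Por*, encoding P450 oxidoreductase and itself a known CAR target, had 850 ± 231 and 1147 ± 356 CPM (log2 fold change 0.43, SE 0.221, edgeR adjusted *P* = 0.365), with overlapping groups. DESeq2 called *Pgrmc1* and *Cyb5a* higher and *Pgrmc2* lower, genes named here after their values had been seen. Over all tested genes DESeq2 called 3.5%. The median of this list was 0.26.

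The female-biased list, which includes *Cyp2b9* and *Cyp2b13*, had 17 tested genes of 26 written. In edgeR 0 were called and 7 had an unadjusted *P* under 0.05, and the median log2 fold change was −0.53. DESeq2, which called 3.5% of all tested genes, called *Sult1e1* higher and *Cyp2c68*, *Cyp2c40* and *Prlr* lower, again named after their values had been seen. Of 25 tested male-biased genes 4 rose and 0 fell in edgeR's test, against 0.764% higher and 0.265% lower over all tested genes. In DESeq2's test 7 rose and 0 fell, 9 had an unadjusted edgeR *P* under 0.05, and the median was 0.36. The 4 called by edgeR were *Cyp4a12a* (0.85, adjusted *P* = 0.0428), *Cyp4a12b* (0.80, adjusted *P* = 0.0141), the complement gene *C6* (0.59, adjusted *P* = 0.0306) and *Cyp2d9* (0.58, adjusted *P* = 0.0264). *Cyp4a12a* and *Cyp4a12b*, both fatty acid hydroxylase genes, share 35.8% and 36.2% of their 100-base stretches with other genes, so their reads cannot be fully told apart. *Cyp2d9* shares 7.91% of its 100-base stretches with other genes.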

How the data were processed

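Liver RNA of 5 control and 5 MI-883 mice was sequenced (directional libraries, paired reads). The authors aligned the reads with STAR to mm10 (the same assembly as GRCm38) and deposited raw counts per Entrez gene from featureCounts, without normalization, and the submitters' processing notes also name fastp 0.23.0. Gene annotation, strand setting and treatment of reads that fit several genes are not given in the sources used here. Library totals lay between 23513665 and 36221514 counts, with a floor of 3 counts. Sex, age and diet were taken from the study's methods.

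Of 16647 listed genes, 16644 were matched to RefSeq symbols and 3 were not. CPM and RPKM were computed here from the deposited counts with TMM factors and GENCODE M21 exon lengths (16576 genes). The 13219 genes with at least 60 counts summed over 10 livers were tested with edgeR 4.0.16 in R 4.3.3 (quasi-likelihood test, Benjamini-Hochberg, threshold 0.05). The standard error is the log2 fold change divided by the square root of F. Single values were compared by exact two-sided permutation of mean log2(CPM + 0.1). Alternatives were DESeq2 1.42.0 without independent filtering, other normalizations, filters and pseudocounts, the replicate number as a block, and leaving out each liver. On simulated data of 13056 genes made after this comparison, edgeR recovered 99% of genes changed by 2 on the log2 scale and 84% of those changed by 1, with 5.67% false calls. DESeq2 recovered 99% and 90% of them, with 10.85% false calls, so genes called by DESeq2 alone are read as less certain. The simulated counts were drawn with edgeR's own dispersions, which can favour edgeR. Changes were placed only in genes with a control mean above 1 CPM, so the rates do not cover lower genes.

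Members and gene lists were chosen with earlier results of these data known. Named were all members, the 3 genes nearest to each, called genes of each list (at most the 4 with the largest change), genes that touch a member and *Cyp2* genes of the cluster. RefSeq windows were found for all 5 members.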

Additional observations from a re-analysis of the deposited data

How the results depend on the processing

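The rise of *Cyp2b10* kept its direction and its call under all 17 alternatives run, with log2 fold changes between 4.79 and 4.83 for other tests, scalings, filters and the replicate block and between 4.67 and 4.93 when single livers were left out. *Cyp2b9* stayed negative and passed the test under no alternative run (−1.19 to −1.12, and −1.52 to −0.84 without single livers). *Cyp2b13* changed sign to 0.17 with the replicate block and ranged from −0.35 to 0.56 without single livers, never passing the test. The cause was not tested. A minimum of 60 counts in every sample removed *Cyp2b9* and *Cyp2b13* from the test, and for *Cyp2b19* and *Cyp2b23* no value could be given. The gain of *Cyp2b10* over *Cyp2b9* stayed at 6.0 and that over *Cyp2b13* at 4.61 when labels were permuted within replicate numbers, but the permutation *P* was 0.0625, the smallest this block allows. Without single livers they ranged from 5.50 to 6.38 and from 4.26 to 4.90 (exact permutation *P* = 0.0159).

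The number of genes called, 136, was 463 with DESeq2, 89 with the replicate block and between 130 and 144 with other scalings and filters. It ranged from 62 to 208 without single livers, with 208, 87, 81, 75 and 68 without control livers 1 to 5, and 70 and 62 without MI-883 livers 2 and 5. Replicate numbers were not taken as pairs. The reason was that, over all tested genes, same-numbered livers of the 2 groups did not deviate together (correlations between −0.12 and 0.362). None correlated best with its own number. For *Cyp2b10* alone, the order of replicate numbers from lowest to highest was the same in both groups. The replicate block lowered the SE of its log2 fold change from 0.247 to 0.0992. The mice were separate animals that the study assigned to groups at random, and no pairing is stated. The shared order of *Cyp2b10* was not tested. At 5 livers per group, a change of the size of that of *Cyp2b9* could not be told from its spread.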
